A study of Mus musculus with 14 samples.

Results

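The 4 tissue inhibitors of metalloproteinases and 6 secreted or membrane-bound matrix proteases were followed by RNA sequencing of mouse heart. The 10 genes were taken by name: the inhibitors Timp1, Timp2, Timp3 and Timp4, the matrix metalloproteinases Mmp2, Mmp3, Mmp14 and Mmp15, and the ADAMTS proteases Adamts1 and Adamts2. They were chosen with earlier results of these data known. All 10 were found among the 51912 genes of the count tables, and all 10 were among the 15651 genes with enough reads to be tested. The study asked what the loss of Clk3, a kinase of the CDC-like family, does to the heart under pressure overload. Its 14 libraries came from C57BL/6J hearts in 4 groups. Clk3 KO hearts after TAC gave 4 libraries, all at 10 weeks of age, and WT hearts after TAC gave 2, also at 10 weeks. Clk3 KO sham hearts and WT sham hearts gave 4 libraries each, of which 2 in each group were at 11 weeks and 2 at 10 weeks. TAC is read here as transverse aortic constriction, a narrowing of the aorta that makes the left ventricle pump against a higher load, with sham surgery as its control. The sources used here do not give the time between surgery and sampling, the sex of the mice, whether the deletion was in every tissue, or whether each library was a separate animal. The p-values therefore measure the spread between libraries.

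Matrix metalloproteinases are zinc enzymes that are made as inactive precursors and cut collagens, proteoglycans and other matrix proteins. TIMPs bind their active sites and block them, and in the heart fibroblasts make most of the collagen that these enzymes work on. Mmp14, which spans the membrane, and Timp2 form the complex on the cell surface that activates the precursor of Mmp2, so Timp2 is both an inhibitor and a part of the activating machinery. ADAMTS proteases are secreted relatives. Adamts2 trims the amino-terminal propeptide from fibrillar procollagen, and Adamts1 cuts proteoglycans such as versican.

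The promoters of 5 members are shown because these genes were called higher after TAC, Timp1, Timp2, Mmp14 and Adamts2 in both genotypes and Mmp3 in KO hearts. Each line runs 5′ to 3′ along the gene's strand, from 250 bases before to 50 bases after the RefSeq start, and was taken from RefSeq on GRCm38.p6, in which 9 of the 10 members were matched, all but Mmp2. The positions are chrX:20869916-20870215, plus strand, for Timp1, chr11:118355362-118355661, minus strand, for Timp2, chr14:54431348-54431647, plus strand, for Mmp14, chr11:50601835-50602134, plus strand, for Adamts2, and chr9:7445572-7445871, plus strand, for Mmp3. Capitals mark the GC box GGGCGG, the AP-1 site TGANTCA, its variant TGAGTAA and the TATA box TATAAA, each searched on both strands. No 2 of these matches overlap in the windows shown. The ETS core GGAAG was searched too, is held by 71.4% of promoters and is not capitalised.
Timp1: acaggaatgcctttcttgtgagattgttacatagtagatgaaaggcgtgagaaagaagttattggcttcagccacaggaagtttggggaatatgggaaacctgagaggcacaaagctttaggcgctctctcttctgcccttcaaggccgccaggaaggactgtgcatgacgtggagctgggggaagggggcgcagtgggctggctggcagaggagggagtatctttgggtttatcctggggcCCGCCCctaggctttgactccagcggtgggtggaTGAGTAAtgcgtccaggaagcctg
Timp2: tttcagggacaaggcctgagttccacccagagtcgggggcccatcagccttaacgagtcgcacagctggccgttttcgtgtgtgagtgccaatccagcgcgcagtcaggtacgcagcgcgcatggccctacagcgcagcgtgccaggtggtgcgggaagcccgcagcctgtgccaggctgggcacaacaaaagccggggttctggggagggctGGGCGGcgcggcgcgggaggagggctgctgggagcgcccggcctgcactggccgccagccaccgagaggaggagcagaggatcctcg
Mmp14: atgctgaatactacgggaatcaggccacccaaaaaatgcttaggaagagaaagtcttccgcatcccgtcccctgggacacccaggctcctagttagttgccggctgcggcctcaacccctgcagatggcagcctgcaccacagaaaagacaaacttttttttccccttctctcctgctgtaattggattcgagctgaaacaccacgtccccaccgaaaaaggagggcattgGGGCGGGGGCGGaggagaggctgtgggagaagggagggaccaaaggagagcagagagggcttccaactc
Adamts2: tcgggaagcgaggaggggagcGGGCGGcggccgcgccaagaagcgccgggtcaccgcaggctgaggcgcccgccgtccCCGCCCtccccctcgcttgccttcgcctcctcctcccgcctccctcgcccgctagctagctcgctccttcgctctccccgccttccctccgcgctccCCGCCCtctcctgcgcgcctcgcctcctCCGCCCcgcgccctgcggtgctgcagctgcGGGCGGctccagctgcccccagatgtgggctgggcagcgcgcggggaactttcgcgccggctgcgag
Mmp3: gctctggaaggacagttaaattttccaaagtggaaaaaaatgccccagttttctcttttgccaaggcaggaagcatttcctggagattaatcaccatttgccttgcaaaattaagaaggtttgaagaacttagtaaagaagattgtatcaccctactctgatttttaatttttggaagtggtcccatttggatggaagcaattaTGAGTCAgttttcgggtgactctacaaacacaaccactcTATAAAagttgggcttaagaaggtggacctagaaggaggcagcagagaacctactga
Mmp3 was the only one of the 9 promoters with an AP-1 site, at 46 bases before the start, and it also held a TATA box. Among 32851 promoters of the same length, 7.81% held the AP-1 letters and 13.6% the TATA box. Timp1 held the AP-1 variant after its start, as 2.68% of promoters did. The GC box, present in 35.7% of promoters, was found 5 times in Adamts2, 2 times in Mmp14 and 1 time each in Timp1 and Timp2. The Adamts2 window was 77.3% G and C and the Mmp3 window 40%, against a median of 52.7% over all promoters. These matches describe the letters only.

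Gene counts per library ranged from 11385818 to 18080226 in KO TAC hearts, from 13287464 to 13441034 in WT TAC hearts, from 13334635 to 14733656 in KO sham hearts and from 12836936 to 20369637 in WT sham hearts. Clk3 still had reads in every KO library, at 50.7 to 64.9 CPM in KO TAC hearts and 62.8 to 67.4 CPM in KO sham hearts, and 73.2 to 96.03 CPM in WT sham hearts. The KO and WT sham groups did not overlap, but the log2 difference of -0.37 ± 0.13 was not called (edgeR adjusted p 0.158). Which part of the gene was deleted is unknown here, so the count of Clk3 does not check the knockout by itself. One WT library lay in the KO range of the 2 genes that separate the genotype labels. Levels are given as CPM, the reads of a gene per fixed number of reads in the library after TMM scaling. Gm8730, an Rplp0 pseudogene that separates the genotypes here, was 57.4 to 67.1 CPM in the 8 KO libraries and 1.26 to 1.63 CPM in 5 of the 6 WT libraries. The sixth, the library labelled wild-type TAC 1, had 66.8 CPM. That library had 54.2 CPM of Clk3, against 92.3 CPM in WT TAC 2. Nppa, which stressed heart muscle switches on, was 639 to 1119 CPM in KO TAC hearts and 1808 to 1912 CPM in WT TAC hearts, against 118 to 235 CPM in KO sham hearts and 104 to 217 CPM in WT sham hearts. Results that use the WT TAC libraries are therefore given with and without the library labelled wild-type TAC 1. Without it 1 library is left, which is assumed to vary like the other groups. Cardiomyocyte markers summed to 33924 to 46179 CPM in every library. The share of reads in no annotated feature was 12.3% to 14.3% in KO TAC hearts and 10.7% and 14.9% in WT TAC hearts, against 17.1% to 19.02% in KO sham hearts and 14.3% to 17.6% in WT sham hearts. Arntl, a clock gene whose level follows the time of day, was 23.2, 23.2, 9.02 and 22.1 CPM in KO TAC hearts and 18.2 and 23.7 CPM in WT TAC hearts. It was 4.40, 4.82, 5.495 and 24.3 CPM in KO sham hearts and 4.53, 5.80, 6.79 and 9.38 CPM in WT sham hearts, so that KO sham 4 stood with most TAC libraries. The part of either in the member differences was not tested.

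Per kilobase of joined exon, the inhibitors Timp3 and Timp2 had the highest values among the members. The joined length counts every annotated exon of a gene, 8144 bases for Timp3, 3896 for Timp2, 5894 for Timp4 and 5960 for Mmp14. A gene whose transcripts use only part of that length reads too low here. The order below therefore depends on these lengths, other lengths were not tested, and it does not settle which member is most abundant. Over the 14 libraries Timp3, which binds to the matrix and also inhibits ADAM and ADAMTS proteases, averaged 47.0 ± 4.66 CPM per kb (SD, n = 14). Timp2 averaged 33.0 ± 6.01, Mmp2, gelatinase A, 27.4 ± 12.6, and Mmp15, a membrane-bound relative of Mmp14, 23.3 ± 2.75 CPM per kb. Timp4, an inhibitor typical of heart, followed at 14.9 ± 6.07 and Adamts1 at 11.3 ± 3.44 CPM per kb. Timp1, a secreted inhibitor that blocks membrane-bound metalloproteinases poorly, averaged 6.21 ± 6.70, Mmp14 4.91 ± 2.13, Adamts2 4.38 ± 2.07 and Mmp3, stromelysin 1, 3.65 ± 1.77 CPM per kb. Timp3 stood above Timp2, and Mmp15 above Timp4, by more than 1 SD of either gene. The neighbours Timp2 and Mmp2, Mmp2 and Mmp15, and Timp4 and Adamts1 differed by less than the larger SD of each pair, as did neighbours among the last 4 members. The level moved most between libraries for Timp1, whose highest CPM was 15.5 times its lowest, and least for Mmp15 with 1.47 times and Timp3 with 1.60 times.

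**Figure D1:**
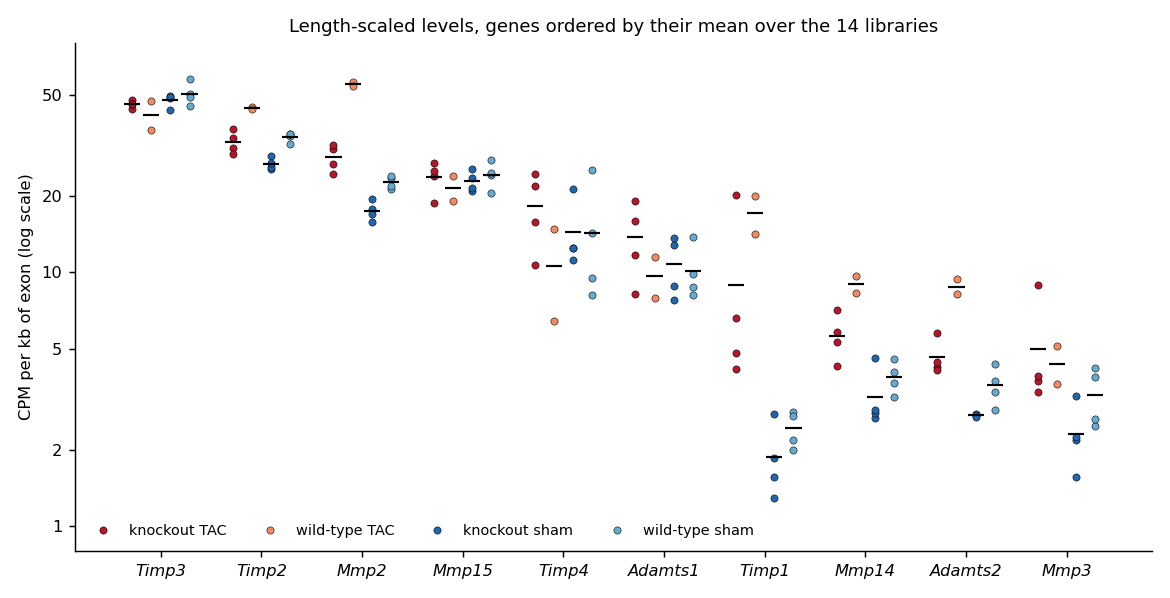
Levels of the 10 members in CPM per kilobase of exon on a log axis, one point per library and a line at each group mean, with groups by colour and members ordered by their mean over 14 libraries. On joined exon lengths, Timp3 leads with 47.0 CPM per kb and Mmp3 is last with 3.65, while Timp1 shows the widest spread. Other lengths were not tested.

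In KO hearts, 6 of the 10 members rose after TAC and none passed the test in the other direction. They were Timp1 and Timp2 among the inhibitors, Mmp2, Mmp3 and Mmp14 among the metalloproteinases, and Adamts2. The background in this comparison was 6.73% of all tested genes higher and 6.26% lower by edgeR's quasi-likelihood test at a Benjamini-Hochberg adjusted p under 0.05. The median log2 difference was 0.52 over the members and -0.01 over all tested genes. All 6 of these called members were also the 6 with an unadjusted p under 0.05.

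Timp1 was measured at 3.69, 4.26, 5.87 and 17.8 CPM in KO TAC hearts, against 1.65, 1.15, 2.47 and 1.39 CPM in KO sham hearts. All 4 TAC values lay above all sham values, and KO TAC 4 stood far above the other TAC libraries. The difference was 2.25 ± 0.44 on the log2 scale (SE), 4.76-fold, with an edgeR adjusted p of 0.00564, on 15 to 270 reads per library over all groups. It passed whichever library was left out, between 1.48 and 2.50, the lower value being without KO TAC 4.

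Mmp2 gave 90.0, 82.0, 103 and 107 CPM in KO TAC hearts and 59.5, 53.2, 57.0 and 65.4 CPM in KO sham hearts. The groups did not overlap. Mmp2 was 1.62-fold higher, 0.70 ± 0.09 on the log2 scale, with an edgeR adjusted p of 0.000585. Its activator Mmp14 was 34.8, 31.8, 25.4 and 42.1 CPM after TAC against 15.9, 16.6, 17.05 and 27.3 CPM in KO sham hearts. Here KO sham 4 lay above KO TAC 3, so the groups overlapped, and the 1.74-fold difference (0.80 ± 0.18, edgeR adjusted p 0.0105) passed with each library left out in turn. Timp2, the third member of the activating complex, reached 119.9, 114, 143 and 132 CPM in KO TAC hearts and 112, 99.2, 101 and 104 CPM in KO sham hearts. The groups just failed to overlap. The difference was small, 1.22-fold (0.29 ± 0.07, edgeR adjusted p 0.0185), and it no longer passed without KO TAC 4, KO sham 2 or KO sham 3, where the adjusted p reached 0.0675.

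Adamts2 read 39.5, 38.5, 41.3 and 53.6 CPM in KO TAC hearts, against 25.7, 25.8, 25.5 and 25.1 CPM in KO sham hearts, which were almost identical to each other. It was 1.70-fold higher, 0.76 ± 0.12 on the log2 scale, with an edgeR adjusted p of 0.00216, and passed with every library left out. Mmp3 was 6.09, 6.69, 7.01 and 16.0 CPM after TAC and 3.92, 4.06, 2.82 and 5.84 CPM in KO sham hearts. The groups did not overlap, but KO TAC 4 again stood apart. The 2.16-fold difference (1.11 ± 0.31, edgeR adjusted p 0.0293) rested on 40 to 242 reads per library over all groups, and it was lost without KO TAC 4, KO sham 1, KO sham 2 or KO sham 3, with adjusted p up to 0.0995. The other 4 members did not pass. Timp3 differed by -0.05 ± 0.09, Timp4 by 0.33 ± 0.35, Mmp15 by 0.05 ± 0.12 and Adamts1 by 0.35 ± 0.24 on the log2 scale.

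Age differed between the TAC and sham groups. With the 10-week libraries alone, 4 TAC against 2 sham, none of the 6 members passed, and 15 genes of the whole table did. The log2 differences were then 2.04 for Timp1 (edgeR adjusted p 0.166), 0.31 for Timp2 (0.155), 0.64 for Mmp2 (0.0580), 1.05 for Mmp3 (0.265), 0.59 for Mmp14 (0.210) and 0.77 for Adamts2 (0.0604). With age as a term in the model, Timp1, Mmp2 and Adamts2 passed.

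In WT hearts, 5 members rose after TAC and none passed downward: Timp1, Timp2, Mmp2, Mmp14 and Adamts2. Of all tested genes, 6.91% were higher and 5.3% lower. Without the library labelled wild-type TAC 1, 4 members were higher, with 1.98% of all genes higher, Timp2 being the one lost. The sixth member with an unadjusted p under 0.05 was Timp3, which was lower. The members' median log2 difference was 0.40, and that of all genes 0.00 to 2 decimals. These 5 were also called in the KO hearts, whose libraries are separate. That overlap is not independent support, because the members were chosen with earlier results of these data known. The groups also shared their estimate of spread.

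Mmp2 stood at 188 and 182 CPM in WT TAC hearts, the highest in the study, against 71.4, 73.7, 78.9 and 80.7 CPM in WT sham hearts. That was 2.43-fold, 1.28 ± 0.10 on the log2 scale with an edgeR adjusted p of 1.91e-06, and 2.39-fold (7.46e-05) without the library labelled wild-type TAC 1. Adamts2 was 87.4 and 76.5 CPM against 26.7, 31.6, 35.0 and 40.5 CPM in WT sham hearts, 2.44-fold (1.29 ± 0.14, edgeR adjusted p 3.51e-05) and 2.28-fold (0.00155) without that library. TAC and sham values did not overlap for either gene, with only 2 WT TAC libraries. An exact permutation test gave p 0.133 for each, the lowest it can give for groups of these sizes. The edgeR test took its spread from all 4 groups.

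Timp1 was 17.7 and 12.6 CPM in WT TAC hearts and 2.50, 1.78, 2.41 and 1.94 CPM in WT sham hearts. This 7.06-fold difference was the largest among the members, 2.82 ± 0.46 on the log2 scale with an edgeR adjusted p of 0.00105. It was 5.89-fold (0.0253) without the library labelled wild-type TAC 1. Mmp14 was 57.6 and 49.2 CPM against 19.2, 27.1, 24.1 and 21.8 CPM in WT sham hearts, again without overlap, 2.30-fold (1.204 ± 0.20, edgeR adjusted p 0.00119) with both libraries and 2.12-fold (0.0327) without that one. Timp2 gave 175 and 172 CPM, against 124, 134, 136 and 136 CPM in WT sham hearts. The groups did not overlap, and the 1.31-fold difference (0.39 ± 0.09, edgeR adjusted p 0.00825) was lost without the library labelled wild-type TAC 1 (adjusted p 0.0900).

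The remaining 5 did not pass in WT hearts. Timp3 was 294 and 385 CPM against 409, 469, 368 and 397 CPM in WT sham hearts, so that the library labelled wild-type TAC 1 lay below all sham values and the other lay among them. Its log2 difference of -0.28 ± 0.11 had an edgeR adjusted p of 0.110, and was -0.09 (0.763) without the library labelled wild-type TAC 1 and -0.48 (0.0164) without WT TAC 2. Timp4 differed by -0.44 ± 0.44, Mmp3 by 0.42 ± 0.36, Mmp15 by -0.17 ± 0.14 and Adamts1 by -0.06 ± 0.30 on the log2 scale. With 10-week sham libraries only, Timp1, Mmp2, Mmp14 and Adamts2 passed in WT hearts and Timp2 did not (edgeR adjusted p 0.0811).

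**Figure D2:**
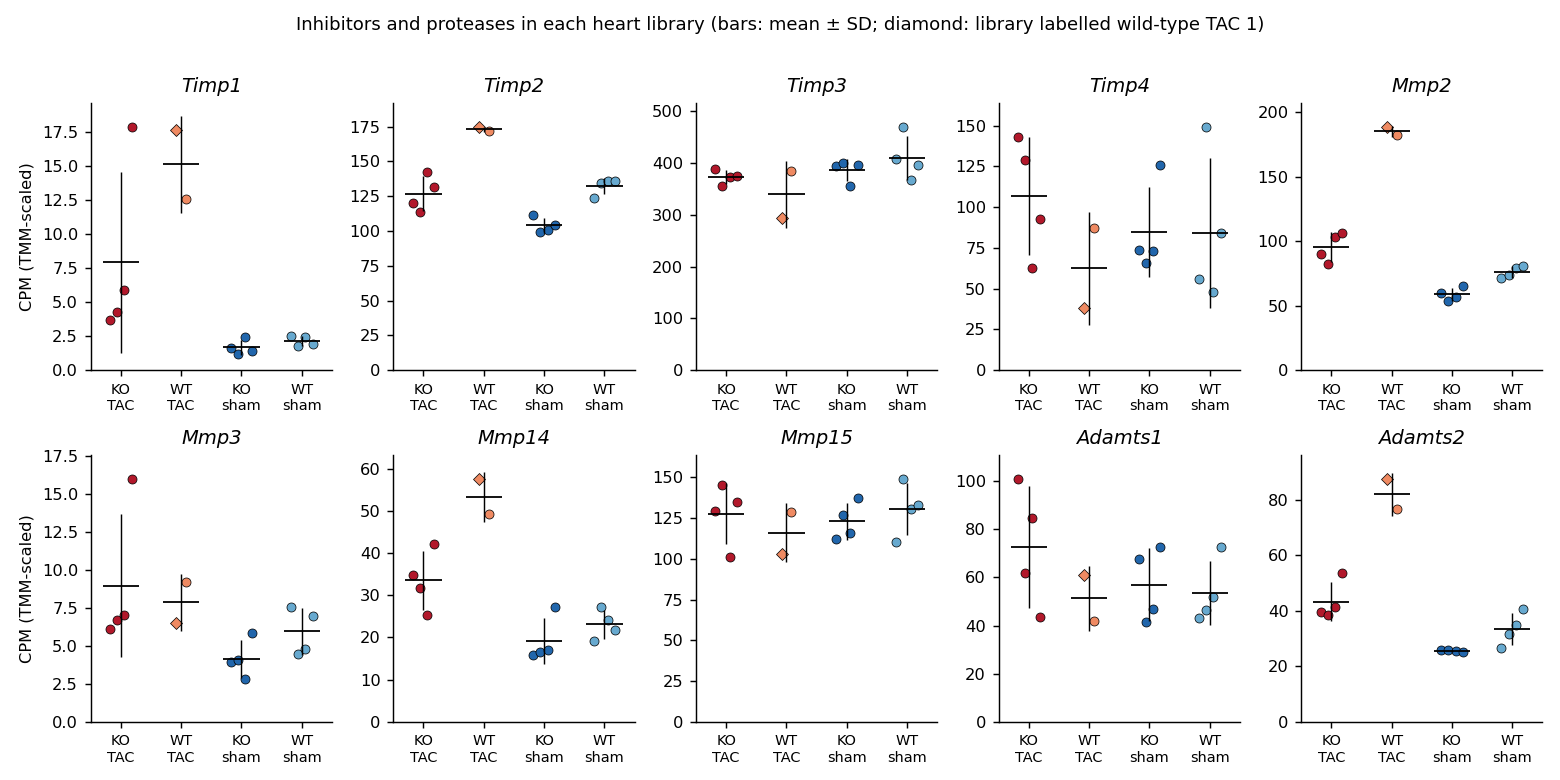
CPM of each of the 10 members in every library, one panel per gene with its own axis from 0; points are libraries, bars are group means with SD (n = 4, 2, 4 and 4) and the diamond is the library labelled wild-type TAC 1. Mmp2 and Adamts2 are highest in the 2 WT TAC libraries, and KO TAC 4 stands apart for Timp1 and Mmp3.

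KO hearts were compared with WT hearts after TAC, using the same TAC libraries as above. Mmp2, Adamts2 and Timp2 were lower in KO TAC hearts, and no member was higher. Of all tested genes, 0.377% were higher and 1.11% lower, and 4 members had an unadjusted p under 0.05, all lower. The median log2 difference was -0.16 over the members and 0.00 over all genes. Mmp2 was 82.0 to 107 CPM in the 4 KO TAC libraries against 188 and 182 CPM in WT TAC hearts. Its log2 difference was -0.96 ± 0.10, which is 1.94-fold lower, with an edgeR adjusted p of 0.000228, and -0.93 (0.00492) without the library labelled wild-type TAC 1. That library had the highest Mmp2 of all 14.

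Adamts2, at 38.5 to 53.6 CPM in KO TAC hearts against 87.4 and 76.5 CPM in WT TAC hearts, differed by -0.92 ± 0.14, 1.89-fold lower, with an edgeR adjusted p of 0.0037. Without the library labelled wild-type TAC 1 the log2 difference was -0.82 and the adjusted p 0.0720. Timp2, at 114 to 143 CPM against 175 and 172 CPM, differed by -0.45 ± 0.09, 1.36-fold lower, with an edgeR adjusted p of 0.016, and was not called without that library (-0.43, 0.136) or without KO TAC 2 (0.0583). The Timp2 call was also lost with only the compared groups in the fit (0.121), with the 10-week libraries (0.0526) and on coding counts (0.0613). Only Mmp2 was therefore called without the library labelled wild-type TAC 1, where 0.253% of all genes were lower. Mmp14 did not overlap either, at 25.4 to 42.1 CPM against 57.6 and 49.2 CPM, but its difference of -0.67 ± 0.20 did not pass (edgeR adjusted p 0.123), except without a filter on low counts (0.00545). Timp1, at 3.69 to 17.8 CPM against 17.7 and 12.6 CPM, differed by -0.92 ± 0.44 (edgeR adjusted p 0.342), with KO TAC 4 at the level of the WT TAC libraries. Without KO TAC 4 the log2 difference was -1.70 and Timp1 was called lower (edgeR adjusted p 0.00325). No other alternative fit called Timp1. Without the library labelled wild-type TAC 1 the log2 differences were -0.66 for Timp1 and -0.56 for Mmp14.

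In sham hearts, KO was compared with WT, with the same sham libraries as in the TAC comparisons. Timp2 was lower in KO and was the only member called, with none higher. Of all tested genes, 0.575% were higher and 0.313% lower, and 3 members had an unadjusted p under 0.05, all lower. The median log2 difference was -0.31 over the members. Timp2 was 99.2 to 112 CPM in KO sham hearts against 124 to 136 CPM in WT sham hearts, with no overlap. Its log2 difference of -0.35 ± 0.07, 1.27-fold lower, had an edgeR adjusted p of 0.0366. It passed in only 1 of the 8 fits that left out a library, with adjusted p up to 0.126, and the 10-week libraries alone gave -0.41 (0.291). Mmp2, at 53.2 to 65.4 CPM against 71.4 to 80.7 CPM, and Adamts2, at 25.1 to 25.8 CPM against 26.7 to 40.5 CPM, did not overlap either, with edgeR adjusted p of 0.0546 and 0.118. With DESeq2, all 3 were called.

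Whether the TAC difference itself depended on genotype was tested with an interaction term. No member passed by edgeR, against 0% of all genes higher and 0.0192% lower, with 2 members at an unadjusted p under 0.05. DESeq2 called 1 member, Mmp2, with an adjusted p of 0.0355, and no other alternative called a member. The log2 difference between the KO and the WT effect was -0.58 ± 0.13 for Mmp2 (edgeR adjusted p 0.281) and -0.53 ± 0.19 for Adamts2 (0.629). Without the library labelled wild-type TAC 1 these differences were -0.56 for Mmp2 and -0.42 for Adamts2. A larger TAC difference in WT than in KO hearts was thus not called by edgeR for any member.

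**Figure D3:**
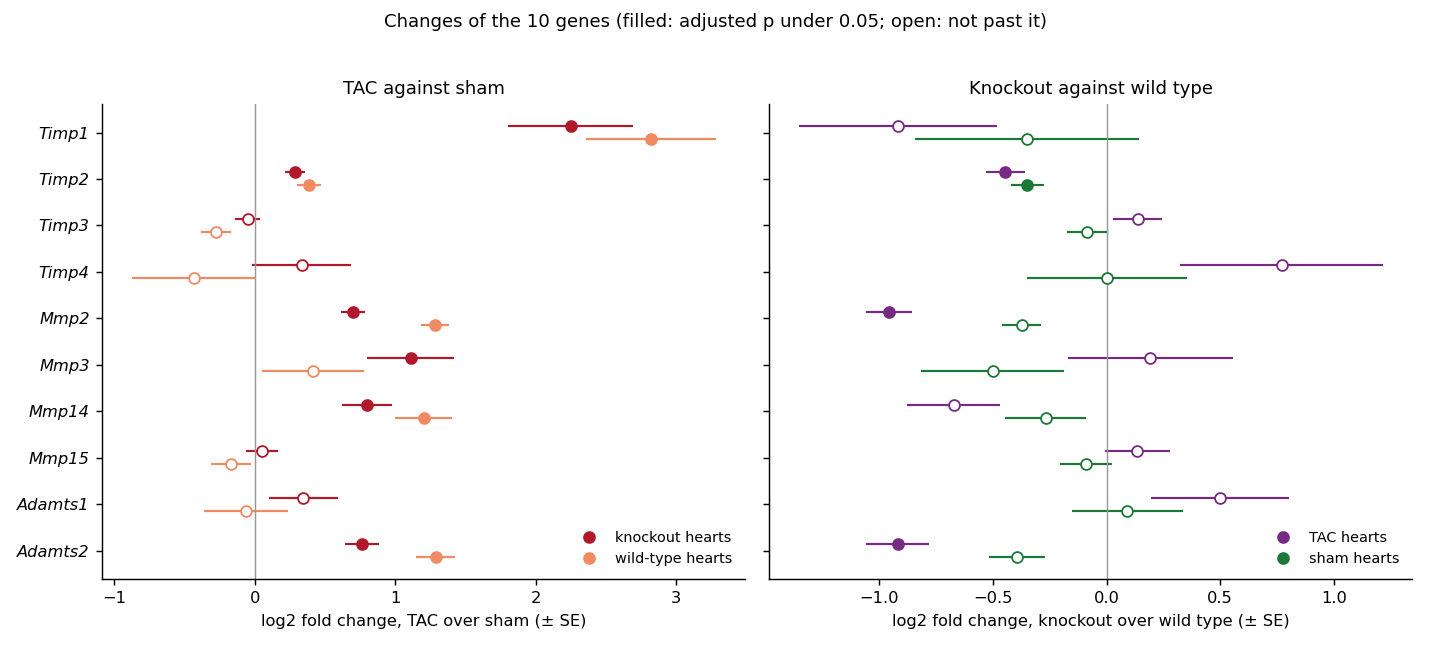
Log2 fold changes of the 10 members with their SE in the 4 comparisons, TAC against sham in KO and WT hearts and KO against WT in TAC and sham hearts; filled points had an edgeR adjusted p under 0.05. Timp1, Timp2, Mmp2, Mmp14 and Adamts2 are filled to the right of 0 in both TAC comparisons, and Timp2 is filled to the left in both genotype comparisons.

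Set against each other per kilobase, the inhibitors outweighed the 4 metalloproteinases in every library. The summed CPM per kb of Timp1 to Timp4 was 105 ± 7.63 in KO TAC hearts and 114 ± 9.25 in WT TAC hearts, against 90.4 ± 6.03 in KO sham hearts and 101 ± 12.7 in WT sham hearts. The sum of Mmp2, Mmp3, Mmp14 and Mmp15 was 62.6 ± 6.78 in KO TAC hearts and 89.8 ± 2.18 in WT TAC hearts, and 45.8 ± 4.66 and 54.0 ± 3.44 in KO and WT sham hearts. The ratio of the sums was 1.79, 1.65, 1.73 and 1.59 in KO TAC hearts and 1.21 and 1.32 in WT TAC hearts. It was 2.11, 1.96, 1.98 and 1.87 in KO sham hearts and 1.92, 2.11, 1.67 and 1.78 in WT sham hearts. TAC libraries lay below the sham libraries of their own genotype, and this ratio of transcripts says nothing of protein or enzyme activity. The sums, the ratio and the shares below depend on the joined exon lengths used for the levels, and other lengths were not tested. Mmp2 supplied 45.4% of the metalloproteinase sum in KO TAC hearts and 61.3% in WT TAC hearts, against 38.2% in KO sham hearts and 41.9% in WT sham hearts. Timp1 supplied 8.17% of the inhibitor sum in KO TAC hearts and 15.2% in WT TAC hearts, against 2.097% in KO sham hearts and 2.46% in WT sham hearts. Timp3 made up 43.6% in KO TAC hearts and 36.5% in WT TAC hearts, against 52.6% in KO sham hearts and 49.98% in WT sham hearts.

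Most markers of activated fibroblasts were called higher after TAC, as were the called members, while few general fibroblast markers were. Activated fibroblast markers summed to 356 to 529 CPM in KO TAC hearts and 988 to 1415 CPM in WT TAC hearts, against 213 to 282 CPM in KO sham hearts and 218 to 320 CPM in WT sham hearts. Of the 8 in that list, which holds Postn, Cthrc1, Acta2 and Fap, 6 were higher after TAC in KO hearts, but not Acta2 or Fap. In WT hearts 6 were higher after TAC, and 5 were lower in KO than in WT TAC hearts, by edgeR. Without the library labelled wild-type TAC 1 the counts in the comparisons that use it were 6 and 4. General fibroblast markers summed to 2142 to 2465 CPM in KO TAC hearts, 2546 to 2839 CPM in WT TAC hearts, 1847 to 2206 CPM in KO sham hearts and 1995 to 2694 CPM in WT sham hearts. The KO ranges overlapped, and 1 of these 8 was higher in KO hearts and 3 in WT hearts after TAC, 2 without the library labelled wild-type TAC 1, with a median log2 difference of 0.13 in KO hearts. Macrophage markers summed to 349 to 446 CPM in KO TAC hearts and 427 to 545 CPM in WT TAC hearts, against 244 to 340 CPM in KO sham hearts and 336 to 340 CPM in WT sham hearts, with 5 of 8 higher in KO TAC hearts and 4 in WT TAC hearts, none of these 4 without the library labelled wild-type TAC 1. Endothelial markers summed to 1181 to 1559 CPM in KO TAC hearts and 1536 to 1561 CPM in WT TAC hearts, against 1136 to 1380 CPM in KO sham hearts and 1269 to 1706 CPM in WT sham hearts. Of these 8, 2 were called higher after TAC in KO hearts and none in WT hearts. Neutrophil markers, with Elane at 0 in every library, summed to 2.59 to 4.73 CPM in KO TAC hearts and 2.23 to 4.74 CPM in WT TAC hearts, against 1.58 to 2.34 CPM in KO sham hearts and 2.26 to 4.74 CPM in WT sham hearts. Of 3 tested, S100a8 and S100a9 were higher in KO TAC hearts by edgeR. Lymphocyte markers summed to 4.43 to 6.69 CPM in KO TAC hearts and 4.07 to 5.19 CPM in WT TAC hearts, against 2.27 to 3.599 CPM in KO sham hearts and 3.20 to 5.001 CPM in WT sham hearts, with none of 4 tested called. Schwann cell markers ran lower after TAC, at 29.8 to 41.4 CPM in KO TAC hearts and 31.9 to 44.5 CPM in WT TAC hearts, against 47.4 to 51.6 CPM in KO sham hearts and 46.3 to 59.9 CPM in WT sham hearts, with 2 of 7 called lower in each genotype. Smooth muscle and pericyte markers were 1625 to 2143 CPM over all libraries, with 1 of 8 called lower after TAC in each genotype. Of 8 cardiomyocyte markers, 2 were called lower after TAC in KO hearts and 1 in WT hearts. The Schwann cell and cardiomyocyte calls in WT hearts were lost without the library labelled wild-type TAC 1. With the 10-week libraries alone, 1 of the 8 activated fibroblast markers was called higher in KO hearts, and no marker of another cell type was called. In WT hearts at 10 weeks, 6 activated fibroblast, 3 general fibroblast and 4 macrophage markers were higher, and no Schwann cell or cardiomyocyte marker was called. More cells of a type and more RNA per cell cannot be told apart in bulk tissue, and the part of these markers in the member differences was not tested.

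**Figure D4:**
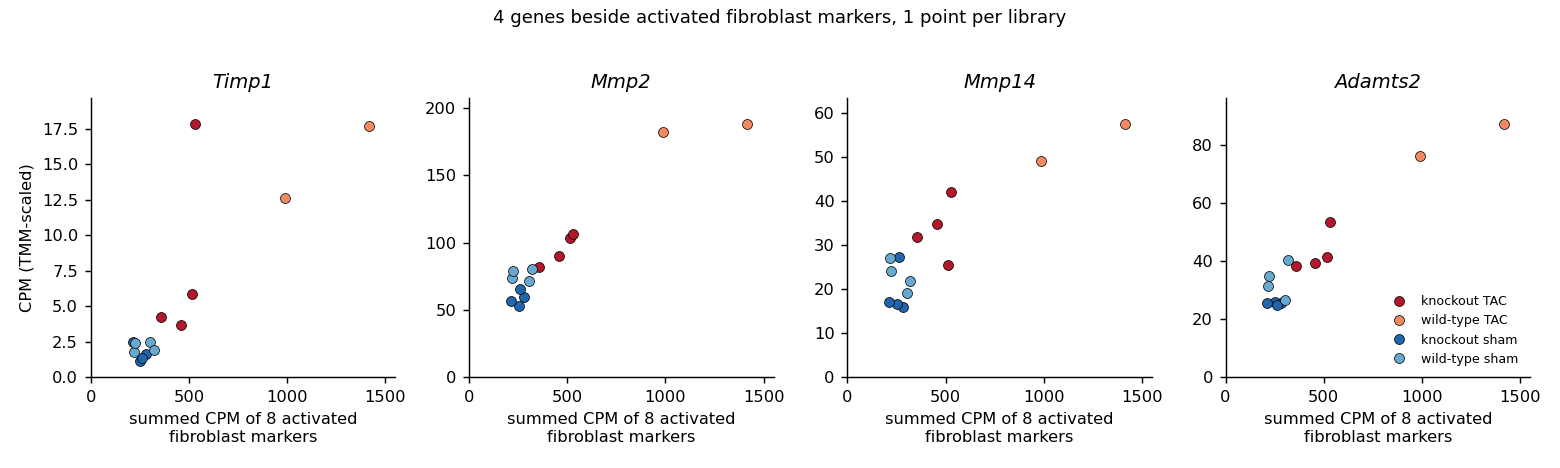
CPM of Timp1, Mmp2, Mmp14 and Adamts2 (vertical axes) against the summed CPM of 8 activated fibroblast markers in the same library, one point per library, groups by colour. The 2 WT TAC libraries, at 988 and 1415 CPM of markers, lie to the right of all others.

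The rest of the protease family moved in few members. Of 19 other metalloproteinase genes, 9 had enough reads to be tested, Mmp1a, Mmp1b and Mmp7 had none, and Mmp23 alone was called. Mmp23 was 12.2 ± 0.881 CPM in KO TAC hearts against 7.17 ± 0.925 CPM in KO sham hearts (SD, n = 4), 1.70-fold higher by edgeR (adjusted p 0.00128), and 2.30-fold higher in WT hearts (1.73e-05), 2.27-fold without the library labelled wild-type TAC 1. It was lower in KO than in WT TAC hearts, with a log2 difference of -0.78 (edgeR adjusted p 0.00409), and was not called without that library (-0.77, 0.0602). Among 14 tested of 17 other ADAMTS genes, 1 was higher and 2 lower in KO TAC hearts: Adamts4, an aggrecanase, at 3.49-fold (edgeR adjusted p 0.0348), and Adamts7 and Adamts3, at log2 differences of -1.08 and -0.75. In WT hearts Adamts8, Adamts20 and Adamts4 were higher and Adamts7 was lower, but none of the 3 higher passed without the library labelled wild-type TAC 1, where the edgeR adjusted p was 0.0535 to 0.100. Adamts7 was still lower there (0.0448), and Adamts10 was higher and Adamts5 lower there, both named after their values were seen. Adamtsl2, an ADAMTS-like glycoprotein without protease activity, was 2.47-fold higher in KO TAC hearts and 5.05-fold higher in WT TAC hearts, 4.46-fold without that library. The list medians were 0.39 and -0.06 for the other metalloproteinases and -0.15 and 0.36 for the other ADAMTS genes in KO and WT hearts, where the medians over all genes were -0.01 and 0.00.

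The substrates moved more broadly. Of 16 matrix substrate genes, 11 were higher and none lower after TAC in KO hearts, and 13 and none in WT hearts, 8 without the library labelled wild-type TAC 1. The list's median log2 difference was 0.79 in KO and 1.33 in WT hearts. Fn1, fibronectin, was 1.89-fold higher in KO TAC hearts (edgeR adjusted p 0.000436), and the type I collagen chains Col1a1 and Col1a2 were 1.90-fold and 1.67-fold higher. KO against WT after TAC, 7 of the 16 were lower, 4 without that library, with Col1a2 at -1.14 (edgeR adjusted p 0.000146) and -0.998 without it. Col1a2 was also the gene whose pattern over the 14 libraries was most like that of Mmp2.

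Other proteases and helpers of collagen processing gave 4 higher and 1 lower of 14 tested in KO hearts, and 5 and 1 in WT hearts. They were Pcolce, Ctsk, Ctss, Pcolce2 and, lower, Tll2 in KO hearts. Pcolce, which enhances the removal of the carboxy-terminal propeptide of procollagen, was 1.53-fold higher in KO TAC hearts (edgeR adjusted p 0.00197) and Ctsk, a collagen-degrading cathepsin, 1.86-fold (0.00315). Of 19 tested genes that activate, bind or clear these enzymes, 4 were higher and 1 lower in KO hearts and 6 and 2 in WT hearts. Serping1, the C1 inhibitor, Cd44, a hyaluronan receptor that holds proteases at the cell surface, and Plat, a plasminogen activator, were 1.45-fold, 1.68-fold and 1.47-fold higher in KO TAC hearts. Thbs2 was lower in both genotypes, but was not called in WT hearts without the library labelled wild-type TAC 1. Thbs1, a matrix protein that binds Mmp2, was 3.16-fold higher in KO TAC hearts (edgeR adjusted p 0.00265) and 4.95-fold higher in WT TAC hearts (0.000236), 4.89-fold without the library labelled wild-type TAC 1. Without that library, 1 gene of this list and 3 of the collagen processing list were higher in WT hearts. Among 20 tested upstream signals and transcription factors, Tgfb2 and Tgfb3, ligands that drive fibroblast collagen synthesis, were 1.82-fold and 1.48-fold higher in KO TAC hearts and 3.33-fold and 2.26-fold higher in WT TAC hearts, and 2.86-fold and 2.35-fold without the same library. In all, 4 of the 20 were higher and 1 lower in each genotype. The one lower in both was the cytokine Ctf1, and Runx1, a transcription factor, was among the higher ones in both. Of 11 tested ADAM genes, 2 were higher and 3 lower in KO hearts, and 2 and 2 in WT hearts. Adam12 was 2.73-fold higher in KO and 2.30-fold higher in WT TAC hearts, and Adam22 and Adam11 were lower in both. The upward ADAM calls in WT hearts were lost without the library labelled wild-type TAC 1. The ADAM list's median log2 difference in WT hearts was 0.23, and 0.19 without the library labelled wild-type TAC 1. In WT hearts at 10 weeks, no ADAM gene was called higher and 2 were called lower. With the 10-week libraries alone, 1 signal, Tgfb2, was still higher (edgeR adjusted p 0.0397) and Adam22 lower (0.0295) in KO hearts, and no other gene of these protease, substrate and signal lists passed.

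KO against WT in TAC hearts, Adamts8 (-1.90, edgeR adjusted p 0.0468) and Adamtsl2 (-1.22, 0.0394) were lower, and without the library labelled wild-type TAC 1 neither passed (0.552 for Adamts8, 0.240 for Adamtsl2). In the same hearts Pcolce, Ctsk, Lrp1, a receptor that clears proteases, and Serpine2, a serine protease inhibitor, were lower, with log2 differences of -0.66, -0.80, -0.56 and -0.60, and none of them passed without the library labelled wild-type TAC 1 (edgeR adjusted p 0.163 to 0.367). Tgfb2 was lower, with a log2 difference of -1.07 (edgeR adjusted p 0.00105) and of -0.85 (0.0367) without that library. Tgfb3 was lower at -0.75 (0.00947) and was not called without it (0.0618). Adamts10 and Bmp1, the procollagen C-proteinase, were called lower without that library and not with it, and are named after their values were seen. In sham hearts Serping1 and Pcolce, each at -0.45, were lower (edgeR adjusted p 0.032 and 0.042), and no gene of these lists was higher. With the 10-week sham libraries alone neither was called, and neither was any other gene of the whole table.

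**Figure D5:**
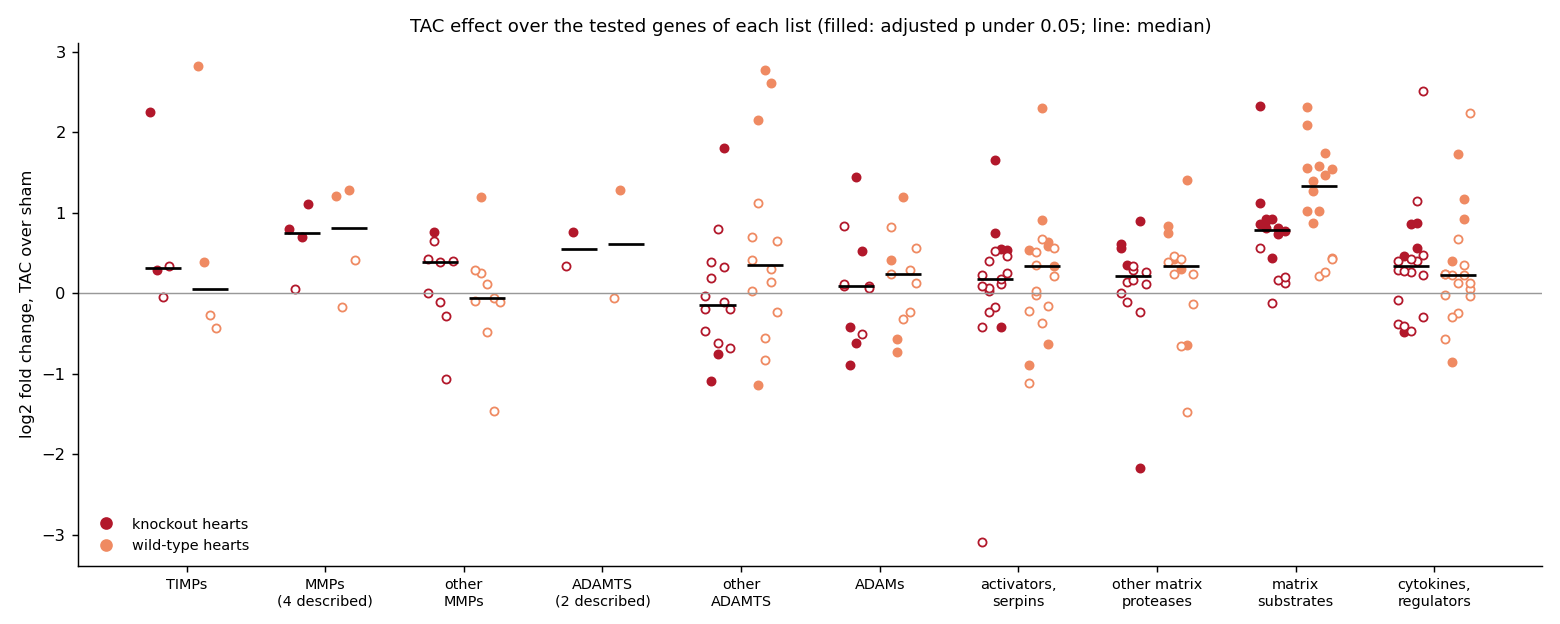
Log2 fold changes after TAC (vertical axis) of the tested genes of 10 lists, KO hearts and WT hearts side by side, with genes called by edgeR filled and a line at each median. Substrates lie mostly above 0, with medians of 0.79 and 1.33, whereas Mmp23 is the one filled point among the other metalloproteinases.

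Patterns over the 14 libraries were compared as the root mean square difference of centred log2 CPM among 13877 genes, a description with groups and depth shared. Mmp2 was nearest to Col1a2 (0.11), Adamts2 (0.13) and Mmp23 (0.13), against a spread of 0.54 for Mmp2 itself. Adamts2 was nearest to Loxl1, Pi16 and Mmp2, and Mmp14 to Vgll3, Col15a1 and Carhsp1. Timp1 was nearest to Tnc, Gm13054 and the activated fibroblast marker Postn, at 0.34 to 0.47 against 1.24 for Timp1. Timp2 was nearest to Sirpa, Entpd2 and Relb, and Timp4 to Zbtb16, Map3k6 and Mcf2l. Timp3 and Mmp15 had no wide movement to share, with differences of 0.07 to Kin and Kdm4a against their own 0.14 and 0.17. Mmp3 was nearest to Ifitm10, Aurka and Lrrc25, and Adamts1 to Apold1, Proscos and Kcna5.

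The members lie apart in GRCm38, and 3 of the 4 inhibitors sit inside a synapsin gene on the opposite strand. Timp1, on chromosome X from 20870166 to 20874735, lies inside Syn1, which had 2 to 9 reads and shares no exon base. Timp3, on chromosome 10 from 86300372 to 86349506, shares 1733 exon bases with Syn3, which had 22 to 60 reads against 3832 to 10036 for Timp3. Timp4, on chromosome 6 from 115241892 to 115252205, shares 90 exon bases with Syn2, at 53 to 99 reads. Timp2, on chromosome 11 from 118301069 to 118355740, holds Cep295nl on its own strand, at 1 to 11 reads. Mmp2 is on chromosome 8 from 92827291 to 92853420, Mmp14 on chromosome 14 from 54431612 to 54445364 and Adamts2 on chromosome 11 from 50602084 to 50807573. No reads of Timp1, Timp3 or Timp4 were counted as ambiguous, against 81840 gene reads of Timp3 over all libraries. The sources used here do not give the strand setting of the counting, and whether reads of an antisense partner fell to these genes was not tested.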

How the data were processed

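RNA of mouse hearts was sequenced in 14 libraries from poly(A)-selected, strand-specific preparations, per the labels' protocols. The deposited values are whole-number read counts per gene, not normalised, with ambiguous reads in a column of their own per the file headers. STAR 2.4.2a, Picard 2.10.3, bcl2fastq 2.17.1.14 and the builds mm10 and GRCm38 are named, without roles, in the submitters' processing notes. The sources used here do not give the counter, its annotation or its strand setting. Reads in no feature (15.3% ± 2.42, SD, n = 14) and ambiguous reads (1.52% ± 0.048) were left out, the share in no feature being lower after TAC in both genotypes on average. Without molecular identifiers, reads are not independent molecules.

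Counts were tested with edgeR 4.0.16 (R 4.3.3) by the quasi-likelihood test on 15651 genes kept by filterByExpr with a minimum count of 10, TMM scaling and a 4-group design, and adjusted by Benjamini-Hochberg over all of them with a threshold of 0.05. The biological coefficient of variation was 11.8%. The SE is the absolute log2 fold change divided by the square root of F. The fit was tested on simulated data. CPM values are scaled by TMM, and CPM per kb uses the exon length of GENCODE M21, in which 51719 of 51912 identifiers matched. The alternatives were DESeq2 1.42.0, other scaling, other filters, only the groups compared, age, coding counts and leaving out each library. No 2 libraries were copies, since replicates differed by a chi-square of 3.44 or more for each degree of freedom. The members and the gene lists were chosen with earlier results of these data known. Named genes are the 10 members, up to 4 called genes of smallest p per list and comparison, the 3 genes most like each member (mean of at least 1 CPM), overlapping genes and label checks.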

Additional observations from a re-analysis of the deposited data

Results flagged for a closer look

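In 6 of the 30 member-and-group sets of 4 libraries, 1 library lay far from the other 3, its gap to the nearest being over 0.829 of the range. Chance alone gives about 1 in 20 such sets. KO TAC 4 had 17.8 CPM of Timp1 and 16.0 CPM of Mmp3, each far above the other KO TAC hearts. KO sham 4 had 126 CPM of Timp4 and 27.3 CPM of Mmp14, each above the other KO sham hearts, and 24.3 CPM of the clock gene Arntl against 4.40 to 5.495 CPM in those. KO sham 3 had 355 CPM of Timp3, below the other KO sham hearts. WT sham 1 had 124 CPM of Timp2, below the other WT sham hearts.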

How the results depend on the processing

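Over the 15 member differences that were called, 86 of 104 alternatives that left out a library and 102 of 120 others kept the call, and none of the 15 reversed. Of all genes, 2033 were called between KO TAC and KO sham hearts, and 15 in the 10-week libraries, 588 with age as a covariate and 1005 on coding counts (797 to 2080 with a library left out). Members called there were 6, and 0 in the 10-week libraries and 3 with age as a covariate (4 to 6 with a library left out). In WT hearts, 1912 genes were called, and 1074 with only the compared groups, 938 at 10 weeks, 1158 with age and 1169 on coding counts (512 to 2224 with a library left out, the lowest without the library labelled wild-type TAC 1), and 5 members (4 to 6). Between KO and WT sham hearts, 139 genes were called, and 608 by DESeq2, 387 without a filter, 0 at 10 weeks and 92 on coding counts (8 to 531 with a library left out). The 1 member called there became 3 by DESeq2, 3 without a filter, 2 with at least 1 CPM in 2 libraries, 0 at 10 weeks and 0 on coding counts (0 to 3). Between KO and WT TAC hearts, 232 genes were called, and 478 by DESeq2, 525 without a filter, 60 with only the compared groups, 120 at 10 weeks and 145 on coding counts (46 to 359), and 3 members (1 to 4). For the interaction, 3 genes were called, and 38 by DESeq2, 66 without a filter, 0 at 10 weeks, 0 with age and 0 on coding counts (0 to 32). No member was called there by edgeR, and 1 by DESeq2 (0 to 0 with a library left out). On coding counts Timp2 was lost after TAC in KO hearts (edgeR adjusted p 0.152) and WT hearts (0.0751), as was Mmp3 in KO hearts (0.0636). The cause of these shifts was not tested.

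The log2 differences whose sign turned were all uncalled. TAC against sham, Timp3 in KO hearts was 0.0196 with age as a covariate. With a library left out, Mmp15 in KO hearts ran from -0.0162 to 0.148, Timp4 in WT hearts from -1.16 to 0.0428 (the highest without the library labelled wild-type TAC 1) and Adamts1 in WT hearts from -0.36 to 0.185, above 0 without WT sham 4 (0.112) or WT TAC 2. KO against WT in sham hearts, Timp4 was -0.0023 with other size factors, -0.0274 without a filter, -0.0093 with at least 1 CPM and -0.0042 on coding counts, and ran from -0.267 to 0.427 with a library left out. Adamts1 was -0.0639 at 10 weeks and ran from -0.0583 to 0.264. KO against WT in TAC hearts, Timp3 ran from -0.0439 to 0.342, Mmp3 from -0.252 to 0.46 and Mmp15 from -0.0162 to 0.302. The lowest was without the library labelled wild-type TAC 1 for Timp3 and Mmp15 and without KO TAC 4 for Mmp3. No paired analysis was possible because replicates were numbered by accession and the labels pair no libraries. Low counts limit Timp1 and Mmp3 most.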
